A study of Homo sapiens with 9 samples.

Results

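The unfolded protein and ATF4 stress genes are a panel of 36 genes chosen by name from the known pathway, with earlier results of these data known. Counts of called or non-overlapping members are therefore not an independent test against the shares over all genes. All 36 were found among the 60664 human gene identifiers of the deposited count table. They fall into an endoplasmic reticulum (ER) branch of 19 genes for protein folding and degradation and an ATF4 branch of 17 genes for amino acid supply and stress signalling. Their transcripts were measured by RNA sequencing in A549, an established human lung adenocarcinoma cell line. The 9 libraries formed 3 groups of 3, all from A549 cells with a short hairpin RNA, an RNA that the cell processes to lower a matching transcript. Per the labels the hairpin was directed at HES1 (shHES1), at HES4 (shHES4) or was a control (shCtrl); no hairpin sequence or clone is given in the labels. HES1 and HES4 encode repressors of transcription from the HES family, and the series asks how both factors affect gene expression in this line.

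Proteins that misfold in the ER are sensed by IRE1, ATF6 and PERK. IRE1 splices XBP1 mRNA, and spliced XBP1 and cleaved ATF6 are known to switch on chaperones and the degradation machinery. PERK phosphorylates the translation factor eIF2alpha, which slows protein synthesis but raises translation of ATF4, so that ATF4 activity can change with little change in its own mRNA; other kinases, such as the amino acid sensor GCN2, act on the same factor, and the ATF4 branch is then called the integrated stress response.

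The directed genes were checked first. HES1 had 9.11, 6.40 and 8.32 CPM in the shHES1 libraries, 6.42, 6.80 and 7.01 CPM in shHES4, and 6.99, 6.55 and 7.17 CPM in shCtrl, where CPM expresses a gene's count relative to the scaled total of its library. HES1 was thus not lower in the libraries labelled shHES1 (log2 fold change 0.20 ± 0.12, SE, adjusted p = 0.345 by edgeR's quasi-likelihood test), and every shHES1 direction given here is that of libraries so labelled. HES4 was lower in both hairpin groups, with log2 fold changes of -0.59 ± 0.10 in shHES1 (adjusted p = 7.60e-04) and -0.46 ± 0.10 in shHES4 (adjusted p = 0.00992). The shHES4 value was -0.30 after correction for GC content and transcript length, and its call was lost without shHES4 replicate 2 (adjusted p = 0.0549) or replicate 3 (adjusted p = 0.0619). Library totals lay between 22789987 and 27555689 estimated counts, and 16903 genes were tested, among them all 36 members. Libraries of a group differed least from each other, except that shCtrl replicate 3 stood apart from the other 2 shCtrl libraries (chi-square per degree of freedom 4.81 and 6.36, against 2.31 to 3.18 for the other pairs within groups) and had the highest share of mitochondrial counts (7.16%). Epithelial keratin and adhesion genes were all detected. Their summed level was 6502 to 6693 CPM in shHES1, 7579 to 7960 CPM in shHES4 and 7283 to 7318 CPM in shCtrl, so it differed between the groups. KRT8, KRT18 and KRT7, most of the sum, had means of 3340, 1567 and 1427 CPM in shHES1, against 3684, 1917 and 1488 CPM in shCtrl. KRT19, CDH1 and EPCAM went the other way, at 61.7, 182 and 2.19 CPM in shHES1, against 37.3, 170 and 1.48 CPM in shCtrl. Of 6 fibroblast markers 3 were high enough to test, with sums of 18.0 to 18.5 CPM in shHES1, 9.55 to 11.8 CPM in shHES4 and 12.6 to 21.0 CPM in shCtrl. Of 6 leukocyte markers 1 was testable and 1 was at 0 in every library, with sums of 4.19 to 4.97 CPM in shHES1, 3.58 to 4.34 CPM in shHES4 and 3.21 to 3.62 CPM in shCtrl. Of 5 endothelial markers 1 was testable, with sums of 1.54 to 1.77 CPM in shHES1, 0.921 to 2.17 CPM in shHES4 and 1.37 to 1.71 CPM in shCtrl, and of 5 erythroid markers 0 (at most 0.398 CPM in any library). The part of these markers in the results below was not tested. DNAJB9, SYVN1, CRELD2, MTHFD2 and DDIT3 overlap other genes with 27.5% to 361% as many counts, or for DDIT3 far more, and whether counting used strand is not given in the sources used here, so their levels are uncertain. The labels do not say that replicates came from separate cultures, so each p-value is set against the variation among these libraries alone, and that variation may be technical.

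The promoters were searched for the letters of known stress elements. RefSeq (GRCh38.p14) gave a window of 250 bases before to 50 bases after the first listed start for 32 of the 36 members; PDIA3, PSPH, SHMT2 and NUPR1 had no entry. Each window was searched on both strands for the ER stress element ERSE (CCAAT and, after 9 bases of any kind, CCACG), its variant ERSE-II (ATTGG and, after 1 base of any kind, CCACG), the unfolded protein response element UPRE (TGACGTGG) and the C/EBP-ATF response element CARE (TGATGNAA). The 250 bases upstream of the start are printed 5′ to 3′ in the direction of the gene, with motif matches in capitals, for HSPA5 (chr9:125241344-125241593, minus strand), the best known unfolded protein target, for XBP1 (chr22:28800570-28800819, minus strand) and HYOU1 (chr11:119057206-119057455, minus strand), each called in a comparison with shCtrl, and for ATF3 (chr1:212565157-212565406, plus strand) and ASNS (chr7:97872409-97872658, minus strand) of the ATF4 branch. HSPA5 was added to these after its values were seen. Every printed window holds a match. SEL1L, CEBPB and STC2, called with a smaller adjusted p than some of these genes, hold none and are not printed. The printed windows therefore do not represent all called members.
HSPA5: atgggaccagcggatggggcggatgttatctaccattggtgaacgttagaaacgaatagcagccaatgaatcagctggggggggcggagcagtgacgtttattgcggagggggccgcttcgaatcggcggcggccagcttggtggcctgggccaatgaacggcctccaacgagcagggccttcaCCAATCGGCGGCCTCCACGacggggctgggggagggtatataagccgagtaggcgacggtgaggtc
XBP1: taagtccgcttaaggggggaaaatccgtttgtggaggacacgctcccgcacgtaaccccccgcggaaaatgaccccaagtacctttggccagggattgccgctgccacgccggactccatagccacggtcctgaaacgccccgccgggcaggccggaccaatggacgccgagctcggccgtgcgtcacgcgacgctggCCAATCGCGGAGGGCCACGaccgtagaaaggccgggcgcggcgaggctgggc
HYOU1: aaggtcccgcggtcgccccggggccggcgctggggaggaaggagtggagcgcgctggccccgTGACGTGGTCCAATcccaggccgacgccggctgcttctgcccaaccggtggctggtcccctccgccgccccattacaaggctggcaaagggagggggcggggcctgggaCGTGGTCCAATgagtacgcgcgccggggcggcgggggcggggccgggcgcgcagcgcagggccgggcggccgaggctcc
ATF3: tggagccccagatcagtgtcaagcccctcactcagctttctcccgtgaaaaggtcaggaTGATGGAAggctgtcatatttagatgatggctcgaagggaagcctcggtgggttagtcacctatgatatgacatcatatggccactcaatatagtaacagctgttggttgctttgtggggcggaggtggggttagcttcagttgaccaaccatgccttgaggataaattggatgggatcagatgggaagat
ASNS: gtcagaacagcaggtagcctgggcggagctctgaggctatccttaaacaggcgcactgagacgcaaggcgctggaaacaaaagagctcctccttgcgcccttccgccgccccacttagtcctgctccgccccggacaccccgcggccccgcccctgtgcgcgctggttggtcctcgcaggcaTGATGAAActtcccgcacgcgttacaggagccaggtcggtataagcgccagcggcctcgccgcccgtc

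HSPA5 and XBP1 each hold 1 ERSE, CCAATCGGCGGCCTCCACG and CCAATCGCGGAGGGCCACG, at positions -66 to -48 and -52 to -34 from the start. HYOU1 holds ERSE-II in both capitalised runs, read on the opposite strand as CGTGGTCCAAT, and the run farther from the start also spells UPRE and overlaps it. ATF3 and ASNS hold the CARE spellings TGATGGAA and TGATGAAA. The ATF3 window belongs to the first listed start, at the outer 5′ end of a gene that reaches to chr1:212620777. Which ATF3 start is used in these cells was not tested, so this spelling need not be a known ATF3 element. Across the branch, ERSE was found in 6 of 18 ER windows (HSPA5, HSP90B1, CALR, CANX, XBP1 and CRELD2) and in 0 of 14 ATF4 windows, against 0.0806% of 27303 promoter windows of the same length. ERSE-II was found in 3 ER windows, those of HYOU1, HERPUD1 (ATTGGGCCACG) and SDF2L1 (CGTGGACCAAT, the opposite strand), against 0.0549% of all windows. CARE was found in HERPUD1, ATF3, CHAC1 and ASNS, against 3.67% of all windows, and UPRE in HYOU1, against 0.795%. The windows of SEL1L, EDEM1, CEBPB, STC2, PHGDH, PPP1R15A and TRIB3, members called below, hold none of these letters. Later starts were listed for 11 members, and 4 of those 14 further windows held a match: ERSE in 1 of PDIA6 and 2 of CANX, and CARE in 1 of CEBPG. The members were chosen by name as known pathway genes, so a higher share of matches than over all windows is not an independent result. A match is a string of letters and not a measured binding site.

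Per length of transcript, the lectin chaperone CALR was the most abundant member, at 458 ± 2.70 CPM per kb in shCtrl (SD, n = 3). HSP90B1 followed at 408 ± 7.69, CANX at 335 ± 4.82, HSPA5 at 242 ± 1.27 and PDIA6 at 231 ± 1.49 CPM per kb. Neighbours in this order differed by more than their spread among the libraries. That spread does not cover the choice of a single transcript length for each gene. Without division by length CANX led, with a mean of 1411 CPM in shCtrl, against 872 CPM for CALR. ATF4 itself, at 125 ± 2.03 CPM per kb, led its branch. The stress factor ATF3 (5.72 ± 0.558 CPM per kb) and the lipoprotein receptor VLDLR (3.92 ± 0.184 CPM per kb) were among the least abundant members. The 19 ER genes together took 6849 to 6950 CPM in shHES1, 6763 to 6845 CPM in shHES4 and 6818 to 6950 CPM in shCtrl. The 17 ATF4 genes took 1742 to 1821 CPM in shHES1, 1694 to 1750 CPM in shHES4 and 1743 to 1814 CPM in shCtrl, so the summed level of each branch overlapped with shCtrl in both hairpin groups.

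In the libraries labelled shHES1 the abundant ER chaperones lay within a few percent of their shCtrl levels, and 3 ER genes outside that class changed. SEL1L and EDEM1, which serve the degradation of misfolded ER proteins, were 14.4% and 10.2% higher, and the transcription factor XBP1 was 10.1% lower. Of the 19 ER members 2 rose, 1 fell and 16 did not pass the test (adjusted p under 0.05 over all genes tested). Among all genes tested 9.73% were called, 5.25% higher and 4.48% lower, so that 54.0% of the called genes were higher; this share was 68.1% with libraries scaled by total counts only and 40.5% after correction for GC content and transcript length. The median log2 fold change of the 19 genes was 0.01, beside -0.00 over all genes. In bulk RNA, fewer cells of a kind and less RNA per cell cannot be told apart.

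Of 12 chaperones and disulphide isomerases 0 passed the test in shHES1 by edgeR's quasi-likelihood test, and 0 by DESeq2's Wald test. By edgeR's test the adjusted p of all 12 lay between 0.136 and 0.987, and 2 of them had an unadjusted p under 0.05. HSPA5 (BiP), the Hsp70 chaperone whose induction is a classic sign of the response, had 916, 918 and 934 CPM in shHES1, against 944, 953 and 944 CPM in shCtrl. HSP90B1 (GRP94), the ER member of the Hsp90 family, had 1191, 1177 and 1216 CPM, against 1159, 1149 and 1191 CPM in shCtrl. HSPA5 was lower in every shHES1 library than in every shCtrl library, but by 2.60% (log2 fold change -0.04 ± 0.03, adjusted p = 0.413), and HSP90B1 overlapped between the groups. For the 7 most abundant of this class (HSPA5, HSP90B1, CALR, CANX and the disulphide isomerases PDIA3, PDIA4 and PDIA6) the 95% intervals of all changes lay between -6.12% and 6.50%. For the others, the co-chaperones DNAJB9, DNAJC3 and DNAJB11, HYOU1 and SDF2L1, the intervals reached from -16.5% to 15.7%. The secreted ER proteins CRELD2 and MANF and the ubiquitin ligase SYVN1 gave changes of 0.11 ± 0.06, -0.00 ± 0.04 and -0.05 ± 0.05, none of which passed the test.

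SEL1L (chr14:81471549-81533861), the adaptor that holds the SYVN1 ubiquitin ligase complex together, had 207, 198 and 201 CPM in shHES1 and 178, 182 and 183 CPM in shHES4, against 174, 179 and 177 CPM in shCtrl. Every shHES1 library exceeded all 6 others, and shHES4 lay close to shCtrl. The log2 fold change was 0.19 ± 0.03 (adjusted p = 4.23e-04), and it remained past the threshold in all 17 alternative fits. EDEM1 (chr3:5187646-5219957), which helps trim mannose from misfolded glycoproteins and marks them for removal, had 125, 126 and 128 CPM in shHES1 and 112, 113 and 113 CPM in shHES4, against 120, 116 and 107 CPM in shCtrl. The shHES1 and shCtrl libraries did not overlap, and shCtrl replicate 3 was the lowest library (0.14 ± 0.04, adjusted p = 0.0259). XBP1 (chr22:28794555-28800597) had 89.2, 85.7 and 93.9 CPM in shHES1, against 101, 97.5 and 100 CPM in shCtrl. All 3 shHES1 libraries lay below all 3 shCtrl libraries (-0.15 ± 0.04, adjusted p = 0.0154). Gene counts do not separate spliced from unspliced XBP1. HERPUD1, another component of the degradation machinery, overlapped with shCtrl (55.1, 53.3 and 53.9 CPM, against 50.9, 54.9 and 52.2 CPM; 0.04 ± 0.05, adjusted p = 0.689).

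The XBP1 call was lost without shHES1 replicate 1 (adjusted p = 0.0599), shHES1 replicate 2 (0.103) or shCtrl replicate 1 (0.0571). The EDEM1 call was lost without shHES1 replicate 1 (adjusted p = 0.0657), 2 (0.0754) or 3 (0.105) or shCtrl replicate 2 (0.0556) or 3 (0.0806), and under the correction for GC content and length (0.0815). Without shHES1 replicate 1, or without shHES1 replicate 2, the count of called ER members was 1, and without shCtrl replicate 3 it was 3, with SDF2L1 lower (adjusted p = 0.0215) in place of EDEM1.

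**Figure D1:**
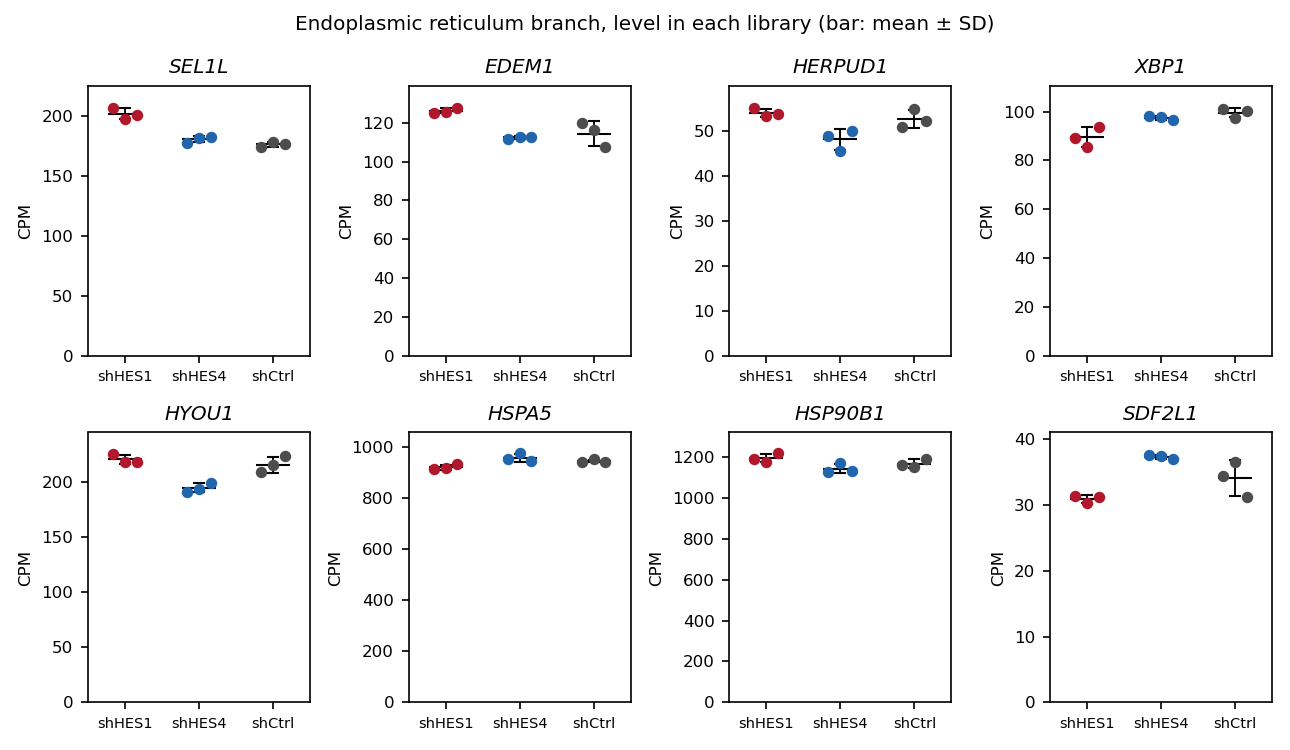
Levels of 8 ER branch genes in CPM (vertical axes, from 0) in each library of shHES1 (red), shHES4 (blue) and shCtrl (grey), with the mean and SD of 3 libraries as black bars. SEL1L and EDEM1 stood higher and XBP1 lower in shHES1, HYOU1 stood lower in shHES4 (191 to 199 CPM), and HSPA5 and HSP90B1 lay close together in all groups.

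In the ATF4 branch the libraries labelled shHES1 showed changes in both directions. The amino acid enzymes ASNS and PHGDH were 13.6% and 13.5% higher and the secreted hormone STC2 was 12.5% higher, while the stress protein NUPR1 was 37.6% lower. PPP1R15A and TRIB3, 2 feedback regulators of the response, were 8.88% and 7.27% lower. Of the 17 members 3 rose, 3 fell and 11 did not pass the test, with a median log2 fold change of 0.01. Among all genes tested 9.73% were called, 5.25% higher and 4.48% lower. The libraries of shHES1 and shCtrl did not overlap for 9 of the 17 genes, and for 7 of the 19 in the ER branch, against 27.6% of all genes.

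ATF4, the factor after which the branch is named, had 245, 237 and 237 CPM in shHES1, 253, 248 and 243 CPM in shHES4, and 235, 236 and 242 CPM in shCtrl. Its log2 fold change was 0.01 ± 0.03 in shHES1 (adjusted p = 0.875). DDIT3 (CHOP), the factor tied to cell death in prolonged stress, had 15.8, 15.5 and 17.4 CPM in shHES1, against 17.3, 15.4 and 15.7 CPM in shCtrl, and the groups overlapped (0.01 ± 0.07, adjusted p = 0.970). DDIT3 had 3733 counts over the 9 libraries and its overlapping neighbour MARS1 had 59885. ATF3, a stress-induced factor of the same family, also overlapped with shCtrl (-0.02 ± 0.10, adjusted p = 0.926). The partner factor CEBPG, the glutathione-degrading enzyme CHAC1 and VLDLR gave 0.01 ± 0.04, -0.18 ± 0.09 and -0.03 ± 0.05, none past the test.

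The enzymes of asparagine, serine and one-carbon synthesis are classic ATF4 targets, and 2 of 6 rose in shHES1, beside 5.25% of all genes. Of 18 further genes of amino acid transport and synthesis, given below, 2 rose and 3 fell. ASNS (chr7:97852118-97872542), which makes asparagine, had 77.8, 74.6 and 79.8 CPM in shHES1 and 68.4, 66.0 and 63.6 CPM in shHES4, against 69.4, 66.4 and 68.7 CPM in shCtrl. PHGDH (chr1:119648411-119744226), the first enzyme of serine synthesis, had 46.2, 44.3 and 45.3 CPM, against 39.7, 39.9 and 40.1 CPM in shCtrl. For neither gene did shHES1 overlap with shCtrl, and the log2 fold changes were 0.18 ± 0.04 (adjusted p = 0.00751) and 0.18 ± 0.05 (adjusted p = 0.0163) by edgeR's quasi-likelihood test. The later serine enzyme PSAT1 and the mitochondrial one-carbon enzyme SHMT2 also lay above every shCtrl library but did not pass the test (0.09 ± 0.03, adjusted p = 0.120, and 0.08 ± 0.03, adjusted p = 0.119). With libraries scaled by total counts only, both passed it (adjusted p = 0.0372 and 0.0282). PSPH, the last step of serine synthesis, and MTHFD2, of the mitochondrial one-carbon pathway, gave -0.02 ± 0.05 and 0.02 ± 0.03. The processed transcript gene ENSG00000284707 covers ASNS on the same strand with 35.1% as many counts, and it gave -0.08 ± 0.06 (adjusted p = 0.485).

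NUPR1 (chr16:28532708-28539174), a small chromatin-associated stress protein, had 3.80, 3.39 and 4.82 CPM in shHES1, 7.04, 7.02 and 6.72 CPM in shHES4, and 6.23, 6.42 and 6.62 CPM in shCtrl. It was the lowest in all shHES1 libraries, with 1279 counts over the 9 libraries (-0.68 ± 0.13, adjusted p = 0.00190). STC2 (chr5:173314713-173329503), a secreted glycoprotein that ATF4 is known to induce, had 163, 159 and 166 CPM in shHES1, against 145, 151 and 138 CPM in shCtrl, without overlap (0.17 ± 0.04, adjusted p = 0.00609). Both calls held in all 17 alternative fits. PPP1R15A (GADD34), the phosphatase subunit that reverses eIF2alpha phosphorylation, had 81.4, 77.9 and 77.5 CPM, against 82.9, 86.9 and 90.2 CPM in shCtrl. TRIB3, a pseudokinase that restrains ATF4 and CHOP, had 274, 257 and 262 CPM, against 276, 289 and 291 CPM in shCtrl. For both genes the shHES1 libraries lay below all shCtrl libraries by a narrow gap (-0.13 ± 0.04, adjusted p = 0.0410, and -0.11 ± 0.03, adjusted p = 0.0434). CEBPB, a C/EBP factor that pairs with ATF4, had 148, 113 and 110 CPM, against 128, 168 and 182 CPM in shCtrl, with overlap (-0.36 ± 0.13, adjusted p = 0.0796).

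The ASNS call was lost without shHES1 replicate 3 (adjusted p = 0.0535), and the PHGDH call without shHES1 replicate 1 (0.0747) or 3 (0.0573) or shCtrl replicate 1 (0.0502) or 2 (0.0549). PPP1R15A lost its call in 9 alternatives, among them without shHES1 replicate 2 (adjusted p = 0.142) or 3 (0.152), shHES4 replicate 2 (0.0515) or shCtrl replicate 2 (0.114) or 3 (0.118), and so did TRIB3, among them without shHES1 replicate 2 (0.197) or 3 (0.144), shHES4 replicate 2 (0.0544) or 3 (0.0547), or shCtrl replicate 2 (0.155) or 3 (0.0806). CEBPB passed the test without shHES1 replicate 1 (adjusted p = 0.0198) or shCtrl replicate 1 (0.0102). With no filter on low counts its adjusted p by edgeR's quasi-likelihood test was 1.83e-17, although its shHES1 and shCtrl libraries overlapped. Why that fit gave so small a value was not tested, and it is not read as stronger evidence. The count of called members was 2 without shHES1 replicate 3, 3 without shCtrl replicate 2 and 4 without shCtrl replicate 3.

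**Figure D2:**
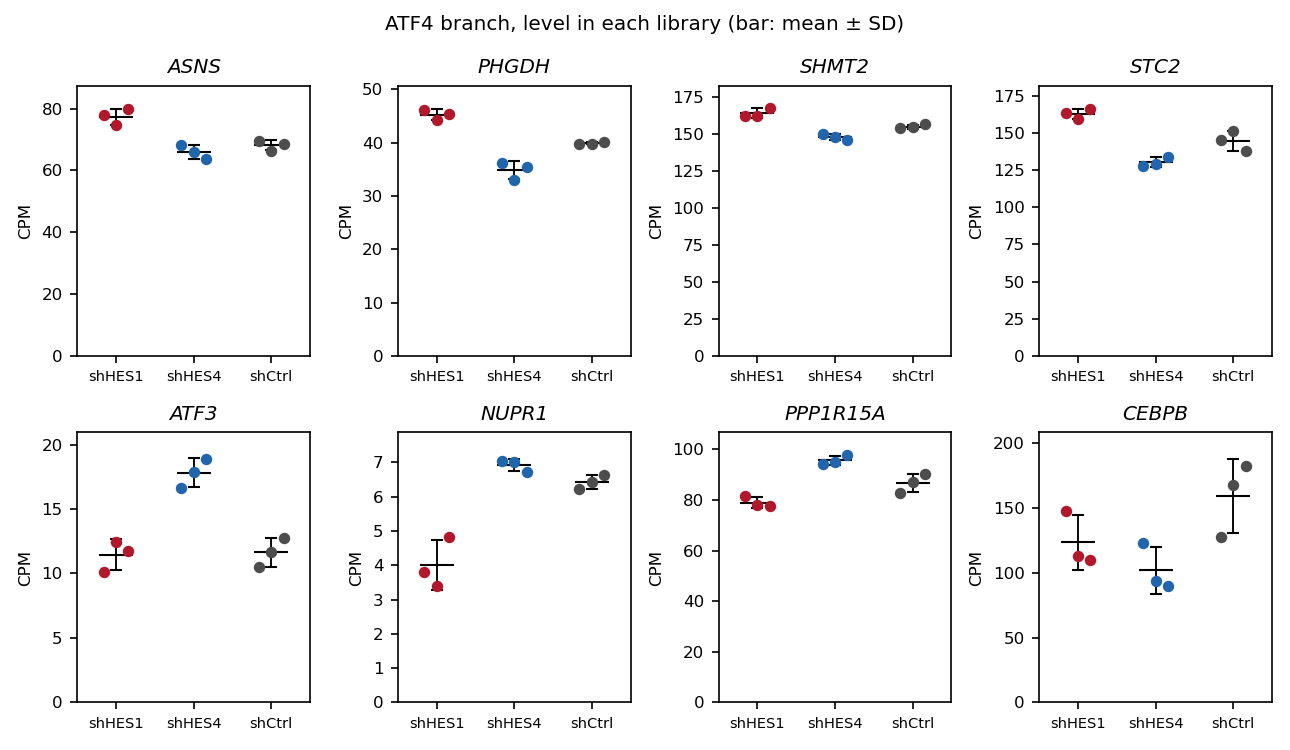
Levels of 8 ATF4 branch genes in CPM (vertical axes, from 0) in each library of shHES1 (red), shHES4 (blue) and shCtrl (grey), with the mean and SD of 3 libraries as black bars. NUPR1 was lowest in shHES1, ATF3 was highest in shHES4 (16.6 to 18.9 CPM), and PHGDH and STC2 lay above shCtrl in shHES1 and below it in shHES4.

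In shHES4 the ER branch changed in 1 of 19 genes, and the ATF4 branch in 5 of 17. ATF3 was 53.4% higher, CEBPB was 35.9% lower, PPP1R15A was 10.5% higher, and HYOU1, PHGDH and STC2 were 9.70%, 12.4% and 9.91% lower. Over all genes tested 5.94% were called in this comparison, 3.24% higher and 2.70% lower. The median log2 fold change was -0.03 for the ER branch and 0.01 for the ATF4 branch, beside 0.00 over all genes. The libraries of shHES4 and shCtrl did not overlap for 5 ER and 9 ATF4 genes, against 22.4% of all genes.

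HYOU1 (chr11:119044189-119057202), an Hsp70-like chaperone and nucleotide exchange factor of HSPA5, was the called ER gene. It had 191, 194 and 199 CPM in shHES4 and 225, 218 and 219 CPM in shHES1, against 209, 215 and 223 CPM in shCtrl. All shHES4 libraries were below all others (-0.15 ± 0.03, adjusted p = 0.0121), and the call held in all 17 alternative fits. HERPUD1 (48.9, 45.5 and 49.9 CPM in shHES4) also lay below every shCtrl library but did not pass the test (-0.13 ± 0.05, adjusted p = 0.123); after the correction for GC content and length it did (adjusted p = 0.0433). SDF2L1, a cofactor of the HSPA5 J-domain proteins, had 37.5, 37.4 and 36.9 CPM, against 34.4, 36.6 and 31.2 CPM in shCtrl, which did not pass the test (0.13 ± 0.06, adjusted p = 0.206). Thus the 3 genes with an ERSE-II match had estimates on both sides of 0. HSPA5 had 954, 977 and 946 CPM in shHES4 and overlapped with shCtrl (0.02 ± 0.03, adjusted p = 0.777). For the 7 most abundant chaperones and isomerases the 95% intervals lay between -8.18% and 5.98%. XBP1, SEL1L and EDEM1, called in shHES1, gave -0.03 ± 0.04, 0.03 ± 0.03 and -0.03 ± 0.04 in shHES4.

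ATF3 (chr1:212565334-212620777) had 16.6, 17.9 and 18.9 CPM in shHES4, 10.1, 12.4 and 11.8 CPM in shHES1, and 10.5, 11.7 and 12.7 CPM in shCtrl. The lowest shHES4 library was above the highest of the other 6 (0.62 ± 0.09, adjusted p = 4.33e-04), and the call held in all 17 alternative fits, with estimates of 0.55 to 0.69. ATF4 and DDIT3, which act around ATF3 in the same pathway, gave 0.06 ± 0.03 (adjusted p = 0.311) and 0.13 ± 0.07 (adjusted p = 0.354). CEBPB (chr20:50190734-50192689) had 123, 93.6 and 89.7 CPM in shHES4, against 128, 168 and 182 CPM in shCtrl. All shHES4 libraries lay below all shCtrl libraries, but replicate 1 stood apart from its fellows in every group (-0.64 ± 0.13, adjusted p = 0.00484). HES4 had 20.4, 17.1 and 16.6 CPM in shHES4, 18.3, 15.2 and 15.7 CPM in shHES1, and 21.3, 25.4 and 27.7 CPM in shCtrl, so replicate 1 was again the highest in both hairpin groups and the lowest in shCtrl. The longest transcripts of CEBPB and HES4 have a GC content of 66.2% and 73.9%, and after the correction for GC content and length CEBPB gave -0.61 ± 0.11 (adjusted p = 0.00223). The part of library composition in this result beyond that correction was not tested.

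In shHES4, PHGDH had 36.3, 33.1 and 35.4 CPM, below all shCtrl libraries (-0.19 ± 0.05, adjusted p = 0.0230). STC2 had 128, 129 and 134 CPM, likewise below all shCtrl libraries (-0.15 ± 0.04, adjusted p = 0.0235). PPP1R15A had 94.3, 95.1 and 97.7 CPM, above all shCtrl libraries (0.14 ± 0.04, adjusted p = 0.0396). These 3 genes were called against shCtrl in both hairpin groups, and in each the shHES1 and shHES4 changes had opposite signs; both comparisons share the shCtrl libraries. TRIB3 had the same estimate as in shHES1 but fell short of the threshold (-0.11 ± 0.03, adjusted p = 0.0563). The other enzymes gave -0.05 ± 0.04 (ASNS), 0.01 ± 0.03 (PSAT1), -0.03 ± 0.05 (PSPH), -0.07 ± 0.03 (SHMT2) and 0.02 ± 0.03 (MTHFD2). NUPR1 gave 0.11 ± 0.12, CEBPG 0.07 ± 0.04, CHAC1 0.00 ± 0.09 and VLDLR 0.08 ± 0.05, none past the test.

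The PHGDH call was lost without shHES4 replicate 2 (adjusted p = 0.106) or 3 (0.0541) or shCtrl replicate 2 (0.0623), and with only the 6 libraries compared in the fit (0.0541); the STC2 call was lost without shHES4 replicate 1 (0.0797) or 2 (0.0809) or shCtrl replicate 1 (0.0536) or 2 (0.118), and with only those 6 libraries (0.0603). PPP1R15A lost its call in 12 of 17 alternatives, among them without any 1 library other than shCtrl replicate 3 (adjusted p = 0.0523, 0.0575 and 0.0591 without shHES1 replicates 1 to 3, 0.0663, 0.0917 and 0.140 without shHES4 replicates 1 to 3, 0.142 and 0.102 without shCtrl replicates 1 and 2). TRIB3 passed the test in 5 of 17 alternatives, without shCtrl replicate 1 (0.0281), with no filter on low counts (0.0250), with a mean of at least 5 CPM (0.0469), by DESeq2's Wald test (0.0202) and after the correction for GC content and length (0.0130). The count of called ATF4 members was 3 without shHES4 replicate 1, 2 without shHES4 replicate 2, 3 without shHES4 replicate 3 and 2 without shCtrl replicate 2, and it was 5 without shCtrl replicate 3, the library that stood apart.

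**Figure D3:**
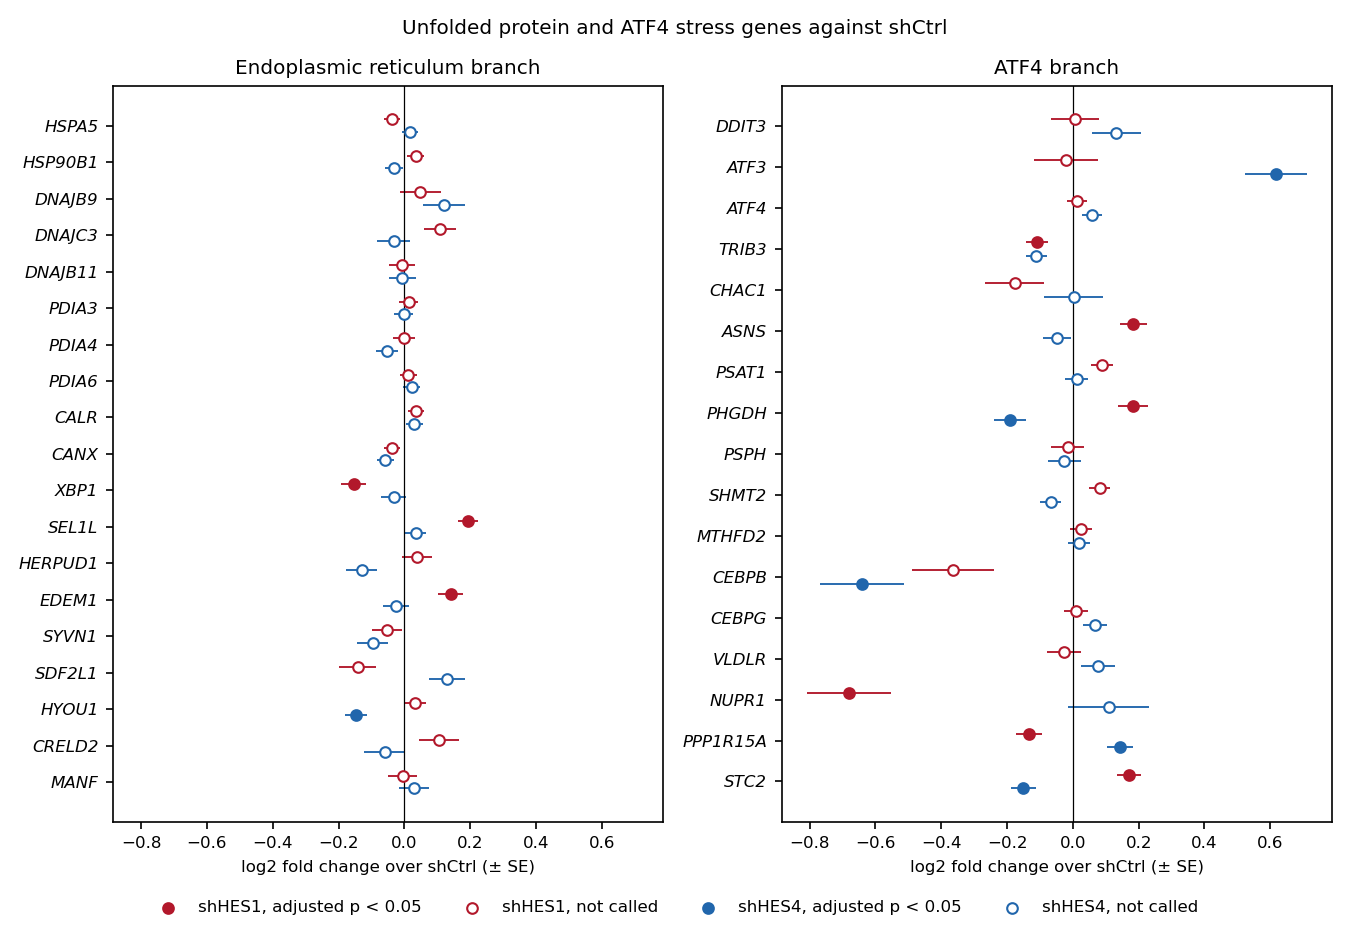
Log2 fold change of all 36 members in shHES1 (red, upper point of each row) and shHES4 (blue, lower point) over shCtrl, with SE as bars; filled points passed an adjusted p of 0.05. Most ER genes lay close to 0, and the largest changes were NUPR1 in shHES1 (-0.68) and CEBPB (-0.64) and ATF3 (0.62) in shHES4.

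Set directly against each other, the libraries labelled shHES1 differed from shHES4 in 6 of 19 ER genes (4 higher, 2 lower) and in 7 of 17 ATF4 genes (4 higher, 3 lower). All genes tested gave 15.1% called, 7.41% higher and 7.65% lower. The medians were 0.02 and 0.00, beside -0.00 over all genes. The libraries of both groups did not overlap for 9 ER and 10 ATF4 genes, against 33.0% of all genes. In the ER branch HYOU1 (0.18 ± 0.03, adjusted p = 0.00109), EDEM1 (0.17 ± 0.04, adjusted p = 0.00655), SEL1L (0.16 ± 0.03, adjusted p = 0.00165) and HERPUD1 (0.17 ± 0.05, adjusted p = 0.0200) were higher in shHES1. SDF2L1, with 31.3, 30.2 and 31.1 CPM in shHES1, against 37.5, 37.4 and 36.9 CPM in shHES4, was lower without overlap (-0.27 ± 0.06, adjusted p = 0.00277). XBP1, with 98.2, 97.6 and 96.4 CPM in shHES4, was also lower in shHES1 (-0.12 ± 0.04, adjusted p = 0.0426). The genes higher in shHES1 include 3 that serve degradation, SEL1L, EDEM1 and HERPUD1, while SYVN1, the ligase they work with, gave 0.04 ± 0.05 (adjusted p = 0.615). Of 18 further degradation genes, given below, 1 was higher and 3 were lower in shHES1, with a median of -0.07.

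All 7 called ATF4 genes kept their call in all 17 alternative fits of this comparison. PHGDH (0.37 ± 0.05, adjusted p = 2.11e-05), STC2 (0.32 ± 0.04, adjusted p = 9.22e-06) and ASNS (0.23 ± 0.04, adjusted p = 8.38e-04) were higher in shHES1. SHMT2, with 162, 162 and 168 CPM in shHES1, against 150, 148 and 146 CPM in shHES4, was higher as well (0.15 ± 0.03, adjusted p = 0.00310). NUPR1 (-0.79 ± 0.13, adjusted p = 3.09e-04), ATF3 (-0.64 ± 0.09, adjusted p = 1.09e-04) and PPP1R15A (-0.28 ± 0.04, adjusted p = 8.42e-05) were lower in shHES1. Of the 6 amino acid and one-carbon enzymes 3 were called higher and 0 lower, beside 7.41% and 7.65% of all genes. The median of the 6 was 0.11, and the 3 others (PSAT1, PSPH and MTHFD2) gave 0.08 ± 0.03, 0.01 ± 0.05 and 0.01 ± 0.03. CEBPB overlapped between the groups (0.28 ± 0.13, adjusted p = 0.175) and passed the test without shHES4 replicate 1 (adjusted p = 0.0441). With no filter on low counts its adjusted p by edgeR's quasi-likelihood test was 2.18e-10, which is likewise not read as stronger evidence. Over the 3 comparisons 15 of the 36 members were called at least once and 21 in none. Those 21 include ATF4, DDIT3, HSPA5 and HSP90B1. The share of all genes called at least once was not counted, so whether 15 of 36 is high was not tested.

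Among the ER genes, the SEL1L call was lost after the correction for GC content and length (0.09, adjusted p = 0.0524), and the HERPUD1 call without shHES1 replicate 1 (0.0810) or 3 (0.0535) or shHES4 replicate 2 (0.0967). XBP1 lost its call in 11 of 17 alternatives, among them without shHES1 replicate 1 (0.125) or 2 (0.206), shHES4 replicate 1 (0.122), 2 (0.110) or 3 (0.0766), or shCtrl replicate 2 (0.0598); DNAJC3 gained one in 3 alternatives, among them without shHES4 replicate 3 (0.0202), and CRELD2 in 5, among them without shHES4 replicate 1 (0.0339) or shCtrl replicate 3 (0.0407). Among members not called here, HSP90B1 passed the test with libraries scaled by total counts only (0.0385), and PSAT1 (0.0496) and VLDLR (0.0307) after the correction for GC content and length. Without shCtrl replicate 3, 7 ER and 7 ATF4 members were called.

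The rest of the pathway was read from 6 further lists of genes that are not members. Over all genes tested 5.25% were called higher and 4.48% lower in shHES1, and 3.24% and 2.70% in shHES4. Between the hairpin groups the shares were 7.41% and 7.65%. Each count of called genes in these lists is to be read beside those shares, and whether any list exceeds them was not tested. These lists, too, were chosen with earlier results of these data known. In shHES1, 1 of 22 sensors and regulators passed the test. This was EIF2AK3, which encodes the sensor kinase PERK, at 19.5, 18.5 and 17.4 CPM in shHES1, 23.1, 24.9 and 24.3 CPM in shHES4, and 25.1, 26.5 and 27.6 CPM in shCtrl. It was lowest in all shHES1 libraries (-0.51 ± 0.06, adjusted p = 2.72e-05; -0.38 ± 0.06 against shHES4, adjusted p = 4.09e-04). In shHES4, 0 of the 22 were called by edgeR's quasi-likelihood test, and 2 had an unadjusted p under 0.05. A divergent non-coding gene overlaps EIF2AK3 on the opposite strand with 4.59% as many counts.

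Of 24 other folding enzymes and chaperones, 2 rose and 2 fell in shHES1. They include the oxidase ERO1A, which recharges disulphide isomerases (0.17 ± 0.03, adjusted p = 0.00114), CRELD1 (0.28 ± 0.06, adjusted p = 0.00613) and the translocon subunit SSR1 (-0.19 ± 0.03, adjusted p = 0.00113). In shHES4 1 rose and 1 fell, SDF2, a relative of SDF2L1 (0.18 ± 0.05, adjusted p = 0.0442; it overlaps SUPT6H, with 558% as many counts), and the calcium-binding protein CALU (-0.14 ± 0.03, adjusted p = 0.00531). Of 18 further genes of ER-associated degradation, 0 rose and 3 fell in shHES1: the p97 adaptor FAF2 (-0.15 ± 0.04), the channel protein DERL1 (-0.13 ± 0.03) and EDEM2 (-0.16 ± 0.05), with adjusted p of 0.0151, 0.0183 and 0.0345. Over all genes tested 4.48% were called lower, and each of these 3 calls was lost when single libraries were left out. In shHES4 1 of the 18 fell, EDEM3 (-0.23 ± 0.05, adjusted p = 0.00599).

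Of 18 genes of amino acid transport and synthesis, 2 rose and 3 fell in shHES1. Both subunits of the cystine transporter were lower, SLC7A11 at 175, 173 and 174 CPM, against 200, 192 and 200 CPM in shCtrl (-0.18 ± 0.04, adjusted p = 0.00714), and SLC3A2 at 571, 531 and 570 CPM, against 641, 634 and 584 CPM in shCtrl (-0.15 ± 0.04, adjusted p = 0.0119). The mitochondrial folate enzyme ALDH1L2 was higher (0.26 ± 0.06, adjusted p = 0.00885). In shHES4 0 rose and 2 fell, the glutamine transporter SLC1A5 (-0.16 ± 0.03, adjusted p = 0.00259) and the aminotransferase GOT1 (-0.19 ± 0.04, adjusted p = 0.00315). Between the hairpin groups 4 were higher and 3 lower in shHES1, with the proline enzyme PYCR1, at 108, 98.1 and 105 CPM in shHES1, against 90.3, 85.1 and 86.9 CPM in shHES4 (0.25 ± 0.04, adjusted p = 8.79e-04) and SLC1A5 (0.15 ± 0.03, adjusted p = 0.00143) higher and SLC3A2 (-0.21 ± 0.04, adjusted p = 5.85e-04) lower.

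Of 14 aminoacyl-tRNA synthetases and their partners, 0 rose and 1 fell in shHES1, the tryptophan enzyme WARS1 (240, 232 and 230 CPM, against 259, 265 and 273 CPM in shCtrl; -0.18 ± 0.03, adjusted p = 8.44e-04). In shHES4 0 rose and 2 fell, VARS1 (-0.17 ± 0.04, adjusted p = 0.0128) and GARS1 (-0.12 ± 0.03, adjusted p = 0.0362). Of 18 other ATF4 and CHOP targets 17 were tested; FGF21 was too low. Of these 2 rose and 3 fell in shHES1, beside 5.25% and 4.48% of all genes, and 4 rose and 0 fell in shHES4, beside 3.24% and 2.70%. SQSTM1, the autophagy receptor p62, had 1299, 1273 and 1291 CPM in shHES1, 1769, 1685 and 1690 CPM in shHES4, and 1601, 1641 and 1637 CPM in shCtrl, lowest in shHES1 without overlap (-0.34 ± 0.03, adjusted p = 1.47e-07). VEGFA, which encodes an angiogenic growth factor, was higher in shHES1 (165, 158 and 157 CPM, against 130, 131 and 136 CPM in shCtrl; 0.28 ± 0.04, adjusted p = 4.33e-05).

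GDF15, a secreted stress cytokine, moved in opposite directions in the 2 hairpin groups. It had 102, 101 and 102 CPM in shHES1, 150, 144 and 138 CPM in shHES4, and 117, 114 and 129 CPM in shCtrl, and no group overlapped another. The log2 fold changes were -0.24 ± 0.05 in shHES1 (adjusted p = 0.00203), 0.26 ± 0.04 in shHES4 (adjusted p = 0.00122) and -0.50 ± 0.05 between them (adjusted p = 4.08e-07). ATF5, a relative of ATF4 that is translated under the same control, was higher in shHES4 (57.9, 59.8 and 59.1 CPM, against 48.5, 49.2 and 48.6 CPM in shCtrl; 0.27 ± 0.05, adjusted p = 9.25e-04) and lower in shHES1 than in shHES4 (-0.44 ± 0.05, adjusted p = 1.92e-06). The gene overlaps NUP62 and IL4I1, the more abundant of which had 329% as many counts. The death receptor gene TNFRSF10B, a CHOP target, was higher in shHES4 (0.18 ± 0.03, adjusted p = 8.80e-04).

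Between the hairpin groups, 2 of the 24 further folding genes were higher and 1 lower in shHES1: ERO1A (0.18 ± 0.03, adjusted p = 5.96e-04), CALU (0.10 ± 0.03, adjusted p = 0.0249) and ERP44, a protein of thiol-based retention (-0.14 ± 0.05, adjusted p = 0.0482). Of the 18 further degradation genes 1 was higher and 3 lower. EDEM3, a mannosidase of the EDEM family, had 58.6, 60.0 and 57.7 CPM in shHES1, against 48.9, 47.8 and 49.3 CPM in shHES4, and was higher without overlap (0.27 ± 0.05, adjusted p = 5.00e-04). The lectin ERLEC1 (-0.17 ± 0.04, adjusted p = 0.00534) and EDEM2 (-0.20 ± 0.05, adjusted p = 0.00640) were lower. Of the 14 synthetases 1 was higher and 1 lower, GARS1 (0.16 ± 0.03, adjusted p = 0.00340) and WARS1 (-0.25 ± 0.03, adjusted p = 2.10e-05). Of the 17 other ATF4 and CHOP targets 1 was higher and 4 lower, SQSTM1 among them (-0.41 ± 0.03, adjusted p = 5.43e-09).

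Some calls in the wider pathway rested on single libraries. In shHES1 the calls lost were those of FAF2 (without shHES1 replicate 1, adjusted p = 0.0532, or 2, 0.0831, or shCtrl replicate 2, 0.0954), DERL1 (without shHES1 replicate 1, 0.0889, 2, 0.0543, or 3, 0.0503, or shCtrl replicate 1, 0.0624), EDEM2 (without shHES1 replicate 1, 0.0811, 2, 0.141, or 3, 0.0717, or shCtrl replicate 1, 0.0614, or 2, 0.168) and SLC3A2 (without shHES1 replicate 2, 0.0858, or shCtrl replicate 1, 0.0549, or 2, 0.0684). In shHES4, VARS1 lost its call without shHES4 replicate 2 (0.0710), and SDF2 and GARS1 lost theirs without most single libraries, with adjusted p of up to 0.201 (SDF2, without shHES4 replicate 1) and 0.120 (GARS1, without shCtrl replicate 1). Between the hairpin groups, CALU lost its call without shHES1 replicate 1 (0.0645), 2 (0.0814) or 3 (0.0891) or shHES4 replicate 1 (0.0630) or 3 (0.0638), and ERP44 in 11 of 17 alternatives, with adjusted p of up to 0.222 without shHES1 replicate 3.

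**Figure D4:**
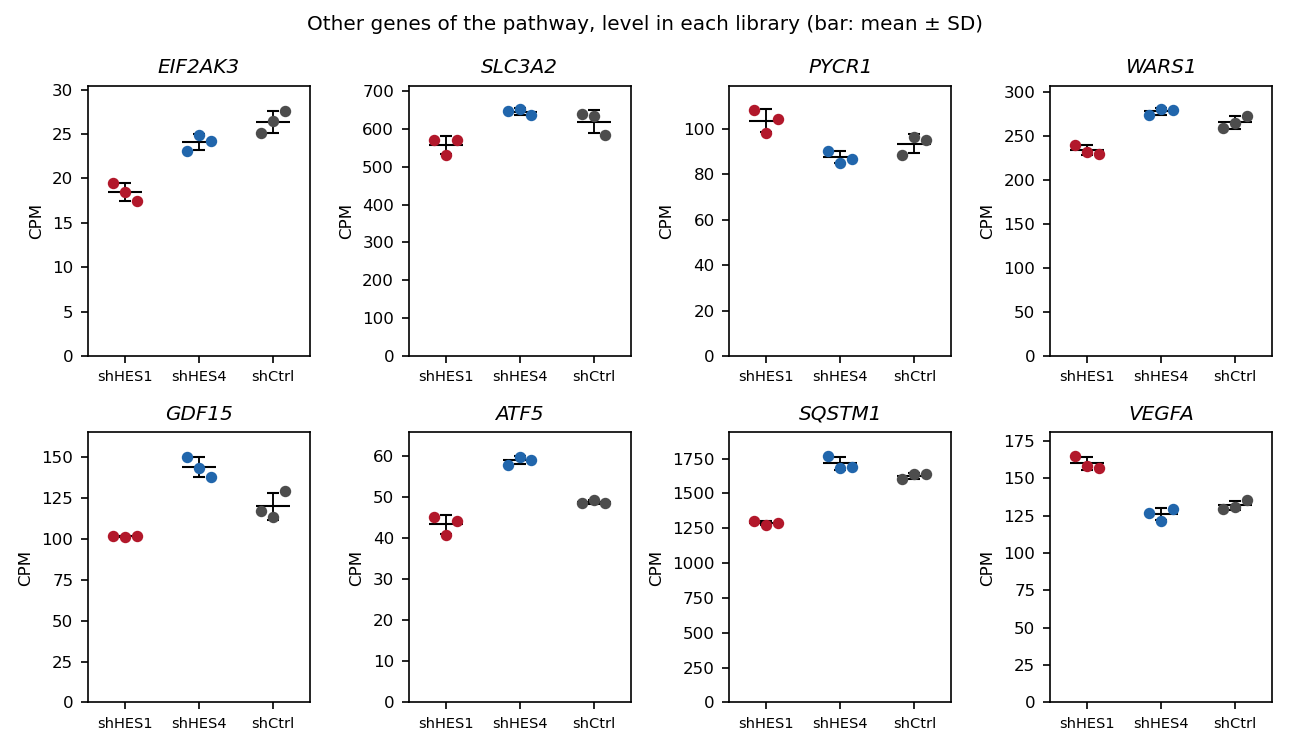
Levels in CPM (vertical axes, from 0) of 8 pathway genes that are not members, in each library of shHES1 (red), shHES4 (blue) and shCtrl (grey), with the mean and SD of 3 libraries as black bars. EIF2AK3 and SQSTM1 were lowest and VEGFA highest in shHES1, ATF5 was highest in shHES4, and GDF15 lay below shCtrl in shHES1 and above it in shHES4.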

How the data were processed

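Total RNA of 9 A549 libraries was extracted with TRIzol and made into libraries with a SMARTer kit, per the labels' protocols. The authors deposited estimated counts per gene, of which 35.5% of the values above 0 were not whole (tolerance 1e-06); no aligner, counter or strand setting is given in the sources used here, and the submitters' processing notes name only mouse genome builds, although the identifiers are human. The estimated counts were rounded, and groups were taken from the sample labels. Genes with too few counts were dropped with filterByExpr, and libraries were scaled by TMM. All libraries entered 1 quasi-likelihood fit with an F test (edgeR 4.0.16, R 4.3.3, limma 3.58.1; 6 residual degrees of freedom; common coefficient of variation 0.0403), with Benjamini-Hochberg adjustment over 16903 genes for each comparison and a threshold of 0.05. SE is the log2 fold change divided by the square root of F. The code was tested on simulated counts, with 50 genes changed at each fold. Of 1.15-fold changes 42% to 48% were recovered in the 3 comparisons, and of 1.25-fold changes 80% to 82%. Whether these shares hold for the members was not tested.

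The 36 members and all lists were chosen with earlier results of these data known. Every called member was named, up to 6 per branch and comparison with each library, and of each other pathway list up to 3 called genes of smallest adjusted p. Gene positions are those of GENCODE 29 on GRCh38, and promoter windows are RefSeq's (GRCh38.p14). The 17 alternatives were the replicate number as a block, RLE size factors, total counts only, no filter on low counts, a mean of at least 5 CPM, DESeq2 1.42.0, only the 6 libraries compared, a correction for GC content and length (mgcv 1.9.3, 98.7% of tested genes), and leaving out each library.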

Additional observations from a re-analysis of the deposited data

How the results depend on the processing

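No value of a member, of the named pathway genes or of HES1 and HES4 changed sign at a call under the 17 alternatives. Of the values of the 36 members alone, 574 were unchanged in call in shHES1 against shCtrl, 32 lost a call and 6 gained one; the numbers for the members were 585, 21 and 6 in shHES4 against shCtrl, and 584, 15 and 13 in shHES1 against shHES4. Of the counts, 2 ER members were called in shHES4 after the correction for GC content and length (1 in the fit reported, HERPUD1 being added), and 2 ATF4 members were called in shHES4 with only the 6 libraries compared (5 in the fit reported; the alternative has fewer samples). Leaving out 1 library gave 1084 to 1800 called genes in shHES1 (1084 without shHES1 replicate 2), 682 to 1015 in shHES4 and 1775 to 2936 between the hairpin groups. It gave 1 to 3 ER members in shHES1, 1 in shHES4 and 4 to 7 between them, and 2 to 6, 2 to 5 and 7 to 8 ATF4 members. Over all genes, same-numbered libraries did not deviate together (r between -0.051 and 0.047), and differently numbered ones reached 0.056. A pairing or batch that touches only some genes would not show in these values. The labels state no pairing, so whether the numbers pair the samples is unknown. With the replicate number as a block, 1443, 850 and 2297 genes were called in shHES1, in shHES4 and between them, with 3, 1 and 5 ER members and 4, 4 and 7 ATF4 members.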
